A study of Mus musculus with 4 samples.

Results

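CXC chemokines are small secreted proteins that steer leukocytes, and they take their name from the arrangement of their first cysteines. The genes examined were Cxcl1, Cxcl2, Cxcl5, Cxcl9, Cxcl10, Cxcl12, Cxcl13, Cxcl14 and Cxcl16, a list of 9 that was picked from the family with the streptozotocin differences of these arrays already known. Probe sets were assigned by the RefSeq accession in their identifier, which gave 9 probe sets of 8 genes among 1246 probe sets in all. Cxcl12 had 2 of them, and no probe set carried the symbol Cxcl16, which was therefore not analysed here. Since the list was selected on the streptozotocin contrast, values of that contrast are given as a description, without a test.

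Expression was measured on 4 arrays, in vascular smooth muscle cells of wild-type mice, which contract the artery wall. Osteogenic medium, which turns such cells towards a bone-like state, was given in both arms. In 1 arm, 0.4 mM streptozotocin was added, a glucosamine-linked nitrosourea known as a toxin of pancreatic beta cells, and the other arm was the untreated control. In each arm 1 array came from cells named WTA and 1 from cells named WT2, referred to as cultures. Whether these are separate animals is not stated in the labels, so p-values measure only the spread between these samples, which may be technical. The titles of all 4 samples carry the mark 3w, which the labels do not explain and which could be a time or an age, and no strain or passage is given. Values are log2 intensities per probe set with array medians between 5.83 and 5.87, and the number of arrays limits their precision.

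By textbook knowledge the family divides by receptor. Chemokines with a glutamate-leucine-arginine motif before the cysteines, in the mouse Cxcl1, Cxcl2 and Cxcl5, act on Cxcr2 and draw neutrophils. Cxcl9 and Cxcl10 are interferon-inducible ligands of Cxcr3 on T cells, Cxcl12 is the ligand of Cxcr4 and holds progenitor cells in place, and Cxcl13 guides B cells through Cxcr5. Cxcl14 is expressed in many epithelia and connective tissues, and its receptor is debated. In vascular smooth muscle the neutrophil attractants are known as rapid products of inflammatory signalling through NF-kappaB, while Cxcl12 is made without a stimulus.

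In the mouse genome 6 of the 9 genes lie on chromosome 5, in the order Cxcl5, Cxcl1, Cxcl2, Cxcl9, Cxcl10 and Cxcl13, while Cxcl12, Cxcl16 and Cxcl14 lie on chromosomes 6, 11 and 13. The RefSeq promoter table (build GRCm38.p6) held entries for 7 of them, and the 250 bases before the annotated start were searched on both strands. A kappaB-like motif, GGGANNTTCC or GGAANNTCCC on the other strand, stood in 3 of the 7 promoters, those of Cxcl1, Cxcl2 and Cxcl10, against 1.21% of all 32851 promoters. An interferon-response-like motif, GAAANNGAAA or TTTCNNTTTC, stood in 2, those of Cxcl10 and Cxcl14, against 2.98% of all promoters. The sequences below belong to the 3 chemokines with the widest spread over the arrays that have an entry (Cxcl1, Cxcl13 and Cxcl14) and to Cxcl2 and Cxcl10, which share a motif with Cxcl1 or Cxcl14. They run 5′ to 3′ along the gene's own strand, and capitals mark matches to either motif.
Cxcl1 promoter, chr5:90890995-90891244, plus strand: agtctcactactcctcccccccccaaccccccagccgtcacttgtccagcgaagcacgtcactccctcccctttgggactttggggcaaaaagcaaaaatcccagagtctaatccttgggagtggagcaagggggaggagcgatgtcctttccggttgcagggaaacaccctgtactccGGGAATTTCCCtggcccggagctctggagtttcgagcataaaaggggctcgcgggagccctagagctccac
Cxcl13 promoter, chr5:95956689-95956938, plus strand: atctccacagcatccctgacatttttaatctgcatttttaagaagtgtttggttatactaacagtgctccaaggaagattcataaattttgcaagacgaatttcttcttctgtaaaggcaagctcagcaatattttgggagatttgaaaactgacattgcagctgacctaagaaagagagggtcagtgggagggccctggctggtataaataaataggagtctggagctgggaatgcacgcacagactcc
Cxcl14 promoter, chr13:56296552-56296801, minus strand: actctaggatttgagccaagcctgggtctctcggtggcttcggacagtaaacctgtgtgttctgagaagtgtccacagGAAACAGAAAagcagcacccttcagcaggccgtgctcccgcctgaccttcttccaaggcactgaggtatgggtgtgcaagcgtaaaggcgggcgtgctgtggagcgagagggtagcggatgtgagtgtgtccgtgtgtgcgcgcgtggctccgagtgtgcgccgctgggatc
Cxcl2 promoter, chr5:90903649-90903898, plus strand: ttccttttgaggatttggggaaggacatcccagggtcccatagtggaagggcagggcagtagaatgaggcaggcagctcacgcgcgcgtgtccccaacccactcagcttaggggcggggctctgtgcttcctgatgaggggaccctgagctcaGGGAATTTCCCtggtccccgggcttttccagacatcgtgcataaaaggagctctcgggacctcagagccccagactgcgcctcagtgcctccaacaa
Cxcl10 promoter, chr5:92348890-92349139, minus strand: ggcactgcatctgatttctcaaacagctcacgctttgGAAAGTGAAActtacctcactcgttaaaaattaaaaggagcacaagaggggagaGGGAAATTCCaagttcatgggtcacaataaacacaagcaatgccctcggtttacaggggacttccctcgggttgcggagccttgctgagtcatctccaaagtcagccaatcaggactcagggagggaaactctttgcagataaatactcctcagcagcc

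In Cxcl1 the capitals cover 2 overlapping matches, 1 on each strand, from position -71 to -61 counted from the annotated start, and in Cxcl2 they run from -97 to -87. In Cxcl10 the interferon-response-like match lies at -213 to -204 and the kappaB-like match at -159 to -150. The match in Cxcl14 lies at -172 to -163. Neither motif's letters occur in this window of Cxcl13, Cxcl9 or Cxcl12. A match is a run of letters and was not tested as a binding site.

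The chemokines were not alike in how far they moved with streptozotocin, nor were the cultures. All 9 probe sets were higher with streptozotocin in WT2, where 43.7% of all probe sets were higher. In WTA, 2 were higher, 6 lower and 1 equal, where the median difference of all probe sets was 0.0. In WTA 0 of the 9 were at least 1.5-fold higher and 0 at least 1.5-fold lower, where 0.642% and 1.69% of all probe sets were. In WT2, 4 of the 9 were at least 1.5-fold higher (Cxcl13, Cxcl14, Cxcl1 and Cxcl5) and 0 at least 1.5-fold lower, against 4.82% and 2.49% of all probe sets. The list was chosen with these differences in view, so nothing is read from the shares. Only Cxcl9 and Cxcl10 of the 9 probe sets were higher in both cultures, as were 22.6% of all probe sets. Between streptozotocin and control limma's adjusted p was under 0.05 for 0 of the 1246 probe sets on the array (0%). Its unadjusted p was under 0.05 for 25. This fit had treatment as the only term. With the arrays paired by replicate number, limma's unadjusted p was under 0.05 for 80 and its adjusted p for 0.

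**Figure D1:**
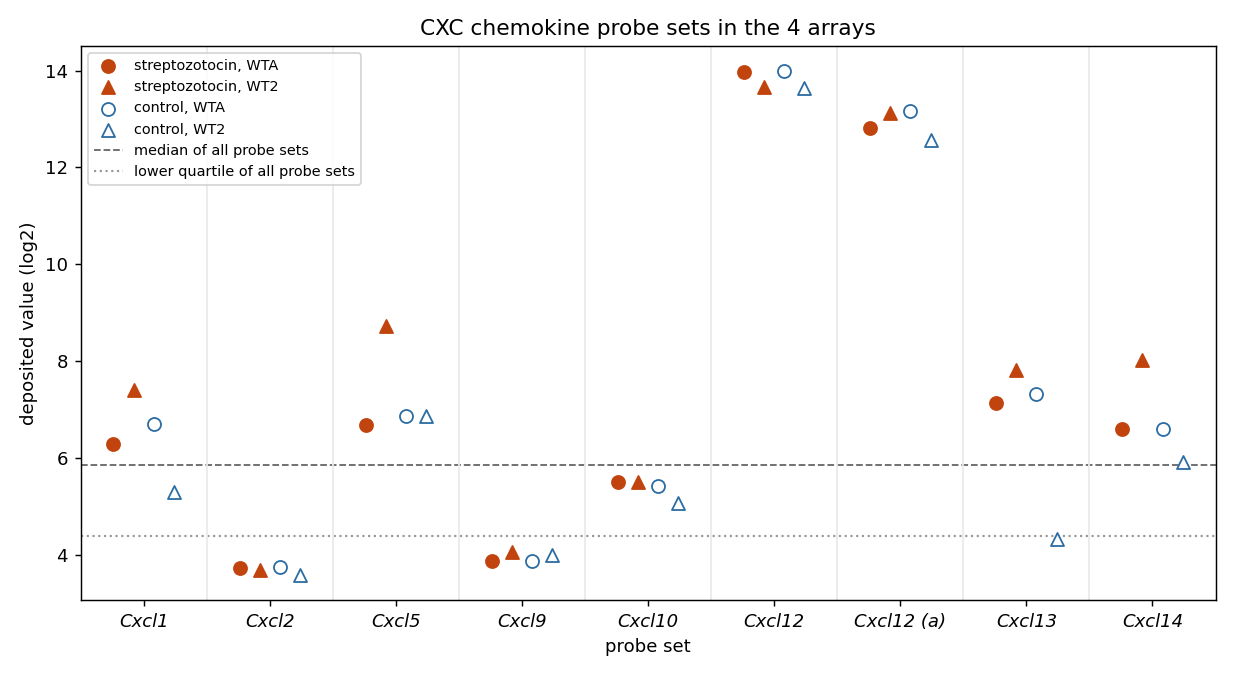
The deposited log2 value of each CXC chemokine probe set is plotted for the 4 arrays, with filled symbols for streptozotocin, open symbols for control, circles for WTA and triangles for WT2; Cxcl12 (a) is the second Cxcl12 probe set, and heights of different probe sets are not comparable. The WT2 control triangle of Cxcl13 lies at 4.32, below 7.14 to 7.82 in the other arrays, while for Cxcl5 the WT2 streptozotocin triangle stands alone at 8.73.

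Of the neutrophil attractants, Cxcl1 had log2 values of 6.28 in WTA and 7.40 in WT2 with streptozotocin, against 6.71 in WTA and 5.29 in WT2 in control cells. Streptozotocin minus control was thus -0.43 in WTA and 2.11, a 4.32-fold higher value, in WT2. The WT2 streptozotocin array lay 0.69 above the higher WTA array and the WT2 control array 0.99 below the lower one, so both WT2 arrays carry the difference and the WTA arrays lie between them. Cxcl1 averaged 6.84 ± 0.79 with streptozotocin, against 5.997 ± 1.004 in untreated cells (mean and SD of 2 arrays each), and the groups overlap.

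Cxcl5, a neutrophil attractant also known in the mouse as LIX, had 6.67 in WTA and 8.73 in WT2 with streptozotocin, against 6.86 in WTA and 6.86 in WT2 in control cells. Its difference was -0.19 in WTA and 1.86 in WT2, a 3.64-fold higher value there. Here a single array stood apart, the WT2 streptozotocin array, which lay 1.87 above the higher WTA array, while the WT2 control array was within 0.01 of the WTA control array. Cxcl5 averaged 7.70 ± 1.46 with streptozotocin, against 6.86 ± 0.0046 in untreated cells (mean and SD of 2 arrays each), and the groups overlap. Without the WT2 streptozotocin array the mean difference was -0.19, against 0.84 with all arrays.

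Cxcl2, the neighbour of Cxcl1 on the chromosome and a ligand of the same receptor, was dim in every array. It had 3.72 and 3.68 with streptozotocin, against 3.74 and 3.58 in control cells (WTA and WT2 in each pair). These values lie under the lower quartile of all values (4.39), where values hold background as well as signal, and their order is not read.

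The Cxcr3 ligands differed by less than 1.5-fold in both cultures. Cxcl10 had 5.50 in WTA and 5.50 in WT2 with streptozotocin, against 5.41 in WTA and 5.06 in WT2 in control cells, all under the array medians. The differences were 0.09 in WTA and 0.44 in WT2, a 1.36-fold higher value. The control array of WT2 was again the lowest, by 0.35 from the next. Cxcl9 had 3.86 in WTA and 4.05 in WT2 with streptozotocin, against 3.86 and 3.99 in control cells, below the lower quartile, with differences of 0.00 and 0.06.

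Cxcl12, the homeostatic ligand of Cxcr4, gave bright signals from both probe sets, which derive from different RefSeq transcripts of the gene. The brighter one had 13.98 in WTA and 13.66 in WT2 with streptozotocin, against 13.99 and 13.63 in control cells, and differed by -0.01 and 0.03. In both WTA arrays this probe set was itself the brightest of all, so a higher level there may not be measurable, and saturation of the probes was not tested. The second probe set, marked as detecting more than 1 transcript, had 12.82 in WTA and 13.13 in WT2 with streptozotocin, against 13.16 and 12.57 in control cells. It differed by -0.34 in WTA and 0.56 in WT2, and neither probe set reached 1.5-fold in either culture.

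Cxcl13, the B cell attractant, held the widest spread. Its values were 7.14 in WTA and 7.82 in WT2 with streptozotocin, against 7.31 in WTA and 4.32 in WT2 in control cells. The difference was -0.17 in WTA and 3.50 in WT2. A single array stood apart, the WT2 control array, 2.82 below the lower WTA array. Its value lies under the lower quartile of all values (4.39), where values hold background as well as signal, so the size of the WT2 difference is uncertain. The WT2 streptozotocin array lay only 0.51 above the higher WTA array. Cxcl13 averaged 7.48 ± 0.48 with streptozotocin, against 5.82 ± 2.11 in untreated cells (mean and SD of 2 arrays each), and the groups overlap. The mean difference of 1.66 became 0.17 when the WT2 control array was left out.

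Cxcl14 had 6.60 in WTA and 8.03 in WT2 with streptozotocin, against 6.60 in WTA and 5.91 in WT2 in control cells. The 2 WTA values are equal in the deposited table to every digit, as they are for 8 of 1246 probe sets, so the WTA difference was 0.00. In WT2 it was 2.12, a 4.36-fold higher value. Both WT2 arrays lay outside the WTA value, the streptozotocin array by 1.43 above and the control array by 0.69 below. Cxcl14 averaged 7.32 ± 1.01 with streptozotocin, against 6.25 ± 0.49 in untreated cells (mean and SD of 2 arrays each), and the groups meet at the WTA value.

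The array behind each difference was named by 1 rule, that an array stands apart when its gap to the nearest of the other 3 is at least 2 times their range. By this rule the WT2 streptozotocin array stood apart on the high side for Cxcl5 and Cxcl14, as it did for 2.65% of all probe sets. The WT2 control array stood apart on the low side for Cxcl13, Cxcl10 and Cxcl2, as it did for 3.29% of all probe sets, although for Cxcl2 the gap was 0.11. No array stood apart for the other 4 probe sets. The WT2 control array was the lowest of the 4 for 7 of the 9 probe sets and for 23.8% of all probe sets. That array and the WT2 streptozotocin array are each a single array. A deviation of either cannot be told apart from a level of the WT2 cells in that arm only. Nor can it be told apart from a streptozotocin response present only in the WT2 cells.

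**Figure D2:**
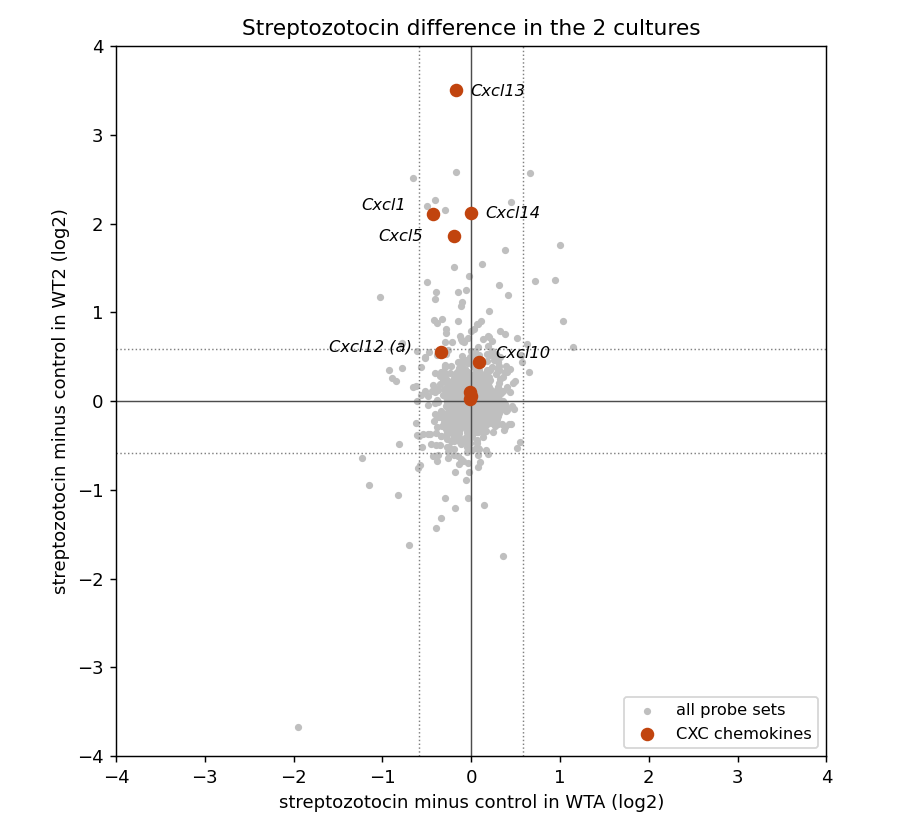
Each point is 1 probe set, with streptozotocin minus control in WTA on the x axis and in WT2 on the y axis (log2), CXC chemokines in red, all probe sets in grey, and dotted lines at 1.5-fold. Cxcl13, Cxcl14, Cxcl1 and Cxcl5 lie between 1.86 and 3.50 in WT2 and between -0.43 and 0.00 in WTA.

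The differences of the 2 cultures pointed in opposite directions for 6 of the 9 probe sets, and for 47.7% of all probe sets. WTA minus WT2 in the streptozotocin difference was -3.67 for Cxcl13, -2.54 for Cxcl1, -2.12 for Cxcl14 and -2.05 for Cxcl5. With 1 array per arm in a culture this difference was not tested. Over all probe sets the differences had an SD of 0.22 in WTA and 0.40 in WT2. The difference was larger in size in WT2 than in WTA for 57.5% of all probe sets.

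The second comparison set WTA against WT2, in a fit with treatment and culture. This contrast did not enter the choice of the list, but its error is tied to that choice. The fit had 1 residual degree of freedom, the gap between the streptozotocin differences of the cultures. That gap was -3.67 for Cxcl13, and the SE of its culture difference was 0.95. Limma's adjusted p was under 0.05 for 28 of the 1246 (2.25%) and for 0 of the 9 CXC chemokine probe sets. For chemokines that moved in WT2 only, this 0 cannot show that the cultures are alike, because their gap widens the error. The smallest adjusted p among the chemokines was 0.215, for the brighter Cxcl12 probe set, and its unadjusted p was 0.0255, the only 1 of the 9 under 0.05. That probe set averaged 13.98 in WTA and 13.65 in WT2, a difference of 0.34 (SE 0.09), and was higher in WTA by 0.32 with streptozotocin and by 0.35 in control cells. The size of this difference is uncertain, because its WTA values are the highest of those arrays. The second Cxcl12 probe set differed by 0.14 (SE 0.25), with -0.31 in the streptozotocin arm and 0.58 in the control arm.

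For the widely spread chemokines the sign of the culture difference depended on the arm. Cxcl1 gave -1.12 in the streptozotocin arm and 1.42 in the control arm, Cxcl13 gave -0.68 and 2.99, and Cxcl14 gave -1.43 and 0.69. For Cxcl5 it was -2.06 with streptozotocin, against -0.01 in the control arm. With the arms averaged, WTA minus WT2 was 1.15 (SE 0.95) for Cxcl13, 0.15 (SE 0.66) for Cxcl1, -0.37 (SE 0.56) for Cxcl14 and -1.03 (SE 0.54) for Cxcl5. When 1 array was left out, culture was the only term of limma's fit. Without the WT2 streptozotocin array Cxcl13 was 2.90 higher in WTA. Without the WT2 control array Cxcl5 gave -1.97 and Cxcl14 -1.43. Each such fit sets both WTA arrays against 1 WT2 array, and so repeats which WT2 array lies far from WTA. Its residual is only the gap between the WTA arrays, which is 0.00 for Cxcl14, so calls from these fits are not read.

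The genes nearest in pattern were sought for the 4 chemokines whose arrays spanned at least 1 on the log2 scale. The measure was the Euclidean distance between the 4 values of each probe set after centring, and the 3 nearest genes were taken. For Cxcl1 they were Has2, a hyaluronan synthase (distance 0.35), Cxcl14 (0.60) and Il13ra1, an interleukin 13 receptor chain (0.62). Has2 had 6.28 in WTA and 7.14 in WT2 with streptozotocin, against 6.78 and 4.94 in control cells, and like Cxcl1 was highest in the WT2 streptozotocin array and lowest in the WT2 control array. For Cxcl5 they were Wnt4, a secreted signalling protein (0.31), Angpt1, a ligand of the Tie2 receptor (0.44), and Vcan, the matrix proteoglycan versican (0.53). Each of these was highest in the WT2 streptozotocin array, and Wnt4 had 8.69 there against 6.21 to 6.54 in the other 3.

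For Cxcl13 the nearest were Il33, an alarmin cytokine (0.78), Ccl7, a monocyte attractant (1.08), and Has2 (1.16). All 3 had their lowest value in the WT2 control array, and Il33 had 6.70 there, against 8.83 to 9.49 in the other arrays. For Cxcl14 they were Cxcl1 (0.60), Mcoln2, a lysosomal cation channel (0.69), and Cxcl5 (0.70). The likeness rests on 4 arrays and describes which array is high or low.

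**Figure D3:**
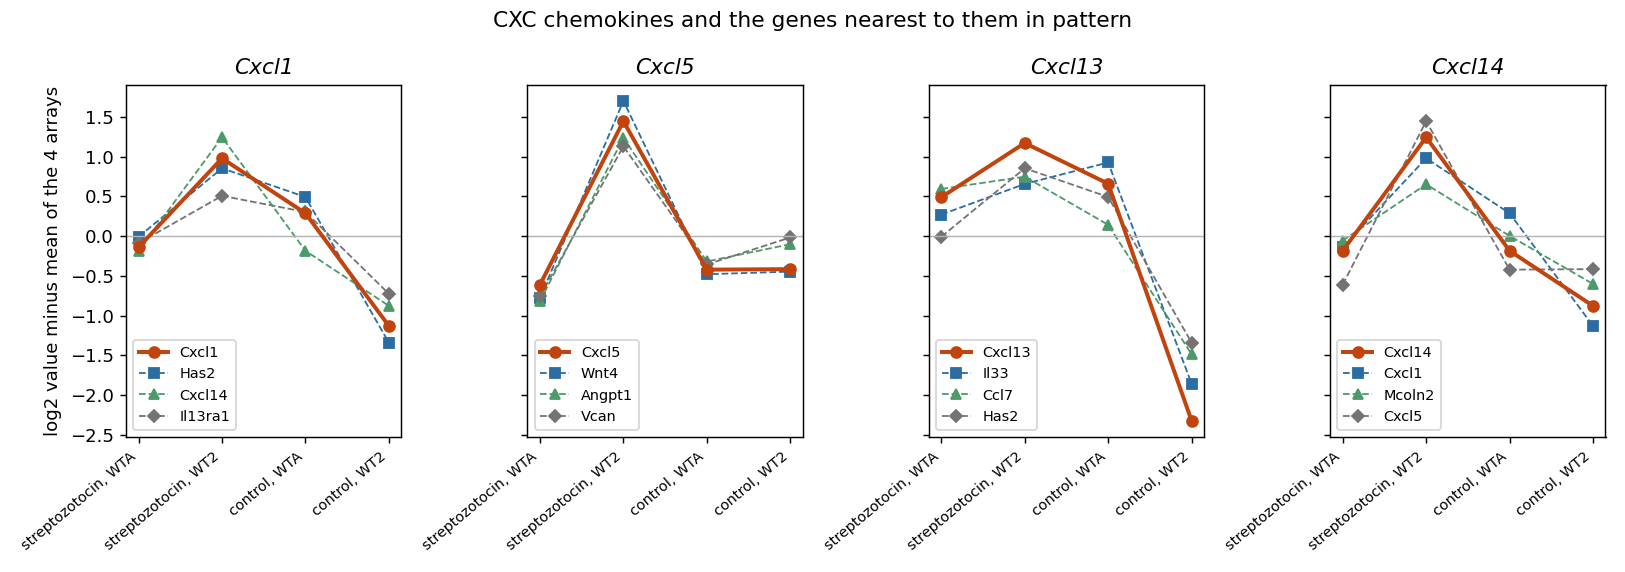
For Cxcl1, Cxcl5, Cxcl13 and Cxcl14 (red lines) and the 3 genes nearest to each (dashed lines), the log2 value minus the gene's mean is plotted over the 4 arrays on the x axis. Cxcl5 and its neighbours peak in the WT2 streptozotocin array, and Cxcl13 and its neighbours are lowest in the WT2 control array.

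Those receptors of these chemokines that were measured gave signals below the median level of all probe sets. Signals of different probe sets are not comparable, so this is not a measure of expression. Of 23 listed chemokine receptors and scavengers 19 were measured, and 18 of them had a mean below the median level, as had 391 of 908 named genes. Ackr1 and Ackr3 were not among the 19, so the receptors were covered only in part. Cxcr2, the receptor of Cxcl1, Cxcl2 and Cxcl5, had 5.43 and 5.33 with streptozotocin, against 5.27 and 5.29 in control cells (WTA and WT2 in each pair) in its brighter probe set, which is marked as open to cross-hybridisation. Cxcr4, a receptor of Cxcl12, had 3.42 and 3.22 with streptozotocin, against 3.44 and 3.59 in control cells. Cxcr3 and Cxcr5, the receptors of Cxcl10 and Cxcl13, had 4.53 to 4.68 and 4.81 to 4.92 with streptozotocin, against 4.59 to 4.63 and 4.93 to 5.07 in control cells. These differences lie within -0.38 and 0.16 on the log2 scale. The exception in level was Ackr4, a scavenger of CC chemokines, with 6.89 in WTA and 8.67 in WT2 with streptozotocin, against 6.22 and 6.09 in control cells.

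The other measured genes of the CXC, CX3C and XC classes differed by at most 0.36 in WT2. Of 8 listed, 5 were measured. Pf4 and Ppbp, platelet chemokines that lie beside Cxcl5 on chromosome 5, differed by 0.02 and -0.07 in WTA and by 0.12 and 0.36 in WT2. Cxcl15, in the same cluster and marked as shared between transcripts, differed by -0.01 and -0.15, and Xcl1, a T cell chemokine, by 0.07 and -0.02. All 4 were below the median level. Cx3cl1, the membrane-bound fractalkine, was bright and lower with streptozotocin, at 8.79 in WTA and 9.07 in WT2 against 9.41 and 9.32 in control cells, differences of -0.62 and -0.25 that are a description too.

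Among 16 of 21 CC chemokines that were measured, the median difference was 0.01 in WTA and 0.11 in WT2. Over 908 named genes it was -0.01 and -0.02. The 8 CXC chemokines had medians of -0.01 and 1.15. They were picked with these differences known and leave out Pf4, Ppbp and Cxcl15, so nothing is read from their median. By the limit of 1.5-fold, 1 CC chemokine was higher and 2 were lower in WTA, against 5 and 0 in WT2. Of the 908 named genes 7 were higher and 18 lower in WTA, against 49 and 25 in WT2. The CC list too was chosen with earlier results of these data known, so nothing is read from its counts. Ccl7 and Ccl8, which attract monocytes, and Ccl5, which attracts T cells, had the largest mean differences, at 1.34, 0.88 and 0.47. Ccl7 had its lowest value in the WT2 control array, as Cxcl13 did, whereas Ccl8 differed by 1.15 in WTA and 0.61 in WT2. The mean of Ccl5 joins opposite directions, -0.12 in WTA and 1.07 in WT2.

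Of 24 cytokines and receptors that can stand upstream of these chemokines, 18 were measured, with medians of -0.13 in WTA and 0.06 in WT2. Tnf had no probe set with that symbol here. Il1b, an inducer of the neutrophil attractants, had 5.42 and 5.41 with streptozotocin, against 5.58 and 5.58 in control cells, and Ifng, the inducer of Cxcl9 and Cxcl10, stayed between 3.32 and 3.67. The largest mean differences were at Il6, an acute-phase cytokine (1.04), Il33 (0.93) and Il1rap, a shared chain of interleukin 1 receptors (0.39). The mean of Il33 joins opposite directions, -0.66 in WTA and 2.52 in WT2. Il6 had 7.94 in WTA and 7.86 in WT2 with streptozotocin, against 7.56 and 6.16 in control cells, so its WT2 control array was the low one. All 8 listed inflammatory adhesion molecules were measured, with Olr1, Icam1 and Selp at 0.97, 0.84 and 0.49. Icam1 had 7.73 in the WT2 control array and 9.28 to 9.93 in the others. Among 10 of 16 proteoglycans and enzymes that bind, present or cut chemokines, Cd44, Ext1 and Sdc4 differed most, by 0.57, 0.46 and 0.31. None of these genes passed the test between streptozotocin and control.

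**Figure D4:**
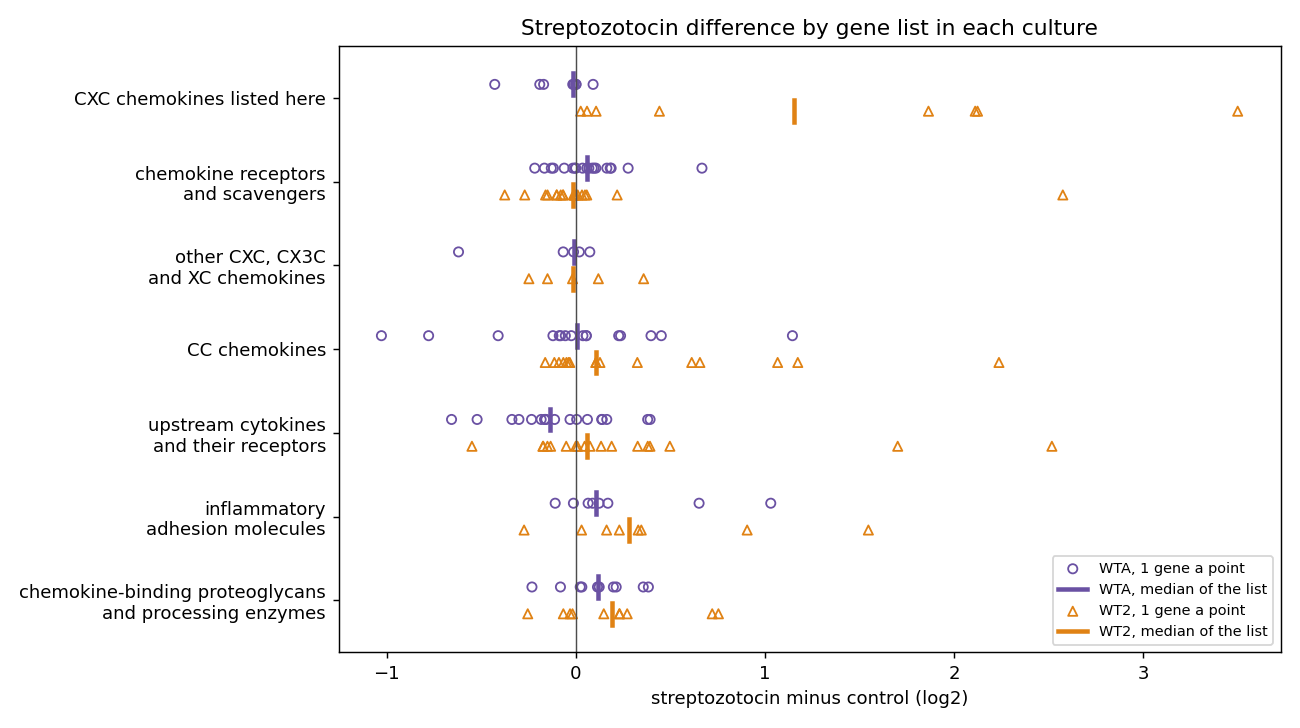
Streptozotocin minus control (log2, x axis) is plotted for each measured gene of 7 lists (y axis), with WTA as circles, WT2 as triangles and the list median as a bar. The CXC chemokines reach 3.50 in WT2 with a median of 1.15, against a highest value of 0.09 and a median of -0.01 in WTA. They were picked with these differences known, so their median is only a description.

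The cell type could be checked only in part. None of 7 listed smooth muscle markers had a probe set with that symbol, so the label rests on the submitters. Of 20 leukocyte and macrophage markers 7 were measured, and 6 of the 7 had a mean below the median level, among them the macrophage marker Adgre1 with 2.79 to 3.16 with streptozotocin, against 2.87 to 3.00 in control cells. The exception was Csf1r, the receptor of the macrophage growth factor, with 7.92 in WTA and 7.40 in WT2 with streptozotocin, against 7.47 and 7.66 in control cells. The 7 leukocyte markers, with values turned back from log2 and summed, gave 381 and 299.7 with streptozotocin, against 309 and 343 in control cells (WTA and WT2 in each pair). Of 12 endothelial markers 6 were measured, and their levels were unlike. Pecam1 had 3.83 to 3.92 with streptozotocin, against 3.79 to 3.997 in control cells, and Sele was as dim. Thbd and Cd34 were bright, at 9.64 to 10.57 and 8.93 to 9.985 with streptozotocin, against 8.63 to 10.37 and 9.38 to 10.46 in control cells. Between the cultures 2 of the 6 passed the test, Esm1 with WTA minus WT2 at 4.93 and Cd34 at -1.07 (limma adjusted p = 0.003 and 0.0445). Of all probe sets 28 passed (2.25%), a count that became 8 after quantile normalization and 2 among probe sets above the median level. Whether Esm1 and Cd34 stay called under those settings is not reported here. Esm1 had 9.33 in WTA and 4.48 in WT2 with streptozotocin, against 8.999 in WTA and 3.99 in WT2 in control cells. The sums over the 6 endothelial markers were 2797 and 1922 with streptozotocin, against 2609 and 1899 in control cells. The 3 measured of 5 fibroblast markers, Dcn, Lum and Pdgfra, were bright and lower with streptozotocin in both cultures, with sums of 7202 and 10378, against 9306 and 14217 in control cells. Each sum follows its brightest genes, such as Csf1r among the leukocyte markers, so it is not a measure of cell content. The part of such cells in the chemokine values was not tested. Fewer cells of a type and less RNA per cell cannot be told apart in these bulk samples.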

How the data were processed

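Affymetrix arrays were hybridised with biotinylated cRNA made out of 0.5 ug RNA, per the labels' protocols. The deposited log2 values (1246 probe sets, 4 arrays) were made with RMA by the authors, per the submitters' processing notes, which give no version or settings. RMA usually equalises the arrays' distributions, so a shift of most genes would not be seen.

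Accessions were matched without version to a RefSeq gene table (GRCm38.p6), which named 962 probe sets of 908 genes. Lists took each gene's brightest probe set. Groups, cultures and replicate numbers came from the titles. The numbers pair the arrays, because the title gives the same cell sample in both arms; the deviations of same-numbered arrays from the group means correlated at 0.600 across probe sets.

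The deposited log2 values were fitted in R 4.3.3 with limma 3.58.1 (lmFit, eBayes), with Benjamini-Hochberg adjustment over all probe sets and a threshold of 0.05. Streptozotocin against control had treatment as the only term, which leaves the pairing out, and WTA against WT2 had treatment and culture. Within a culture the difference of 2 values was taken, with 1.5-fold as the limit and no test. The fits were run on simulated data with known differences. For streptozotocin against control the simulated arrays held no culture difference. That run therefore cannot show how the fit with treatment only performs on these arrays. The members and lists were chosen with earlier results of these data known. Named genes were all members, the 3 nearest in pattern to each member spanning at least 1 (log2), the measured receptors and related chemokines, and the 3 largest mean differences of each further list; other genes named were picked after their values were seen. Alternatives were normalization, a filter on dim probe sets, the variance model, the replicate block, other folds, the mean of a gene's probe sets and each array left out.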

Additional observations from a re-analysis of the deposited data

Results flagged for a closer look

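For 6 of the 9 CXC chemokine probe sets the streptozotocin difference ran in opposite directions in the 2 cultures, which was not tested because a culture has 1 array per arm; 47.7% of all probe sets did the same. WTA minus WT2 in that difference was -3.67 for Cxcl13, from -0.17 in WTA and 3.50 in WT2. It was -2.54 for Cxcl1 and -2.05 for Cxcl5. The second Cxcl12 probe set gave -0.90, from -0.34 in WTA and 0.56 in WT2. For the brighter Cxcl12 probe set the value was -0.036, and for Cxcl2 it was -0.12, with no difference in either culture above 0.11 on the log2 scale.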

How the results depend on the processing

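With 4 arrays, and with Cxcl2 and Cxcl9 below the lower quartile of the signal, small differences are not resolved. The count of probe sets between streptozotocin and control was 0 in limma under every alternative run, with the replicate block (80 at an unadjusted p under 0.05, smallest adjusted p 0.536) and with each array left out included. Between the cultures it was 28, and became 8 after quantile normalization, 2 among probe sets above the median level, 49 with a robust fit and 0 to 18 with 1 array left out; the cause was not tested, apart from the fewer probe sets and arrays. That last setting, added after seeing the data, has culture as the only term, since treatment and culture leave no residual degrees of freedom in 3 arrays. A limit of 2-fold in place of 1.5-fold, which is stricter by construction, left 29 higher and 10 lower probe sets in WT2 and 3 higher and 4 lower in WTA. With 1 array left out, the mean streptozotocin difference ranged from 0.13 to 1.55 for Cxcl1, -0.19 to 1.87 for Cxcl5, 0.17 to 3.16 for Cxcl13 and 0.35 to 1.78 for Cxcl14. Over the alternatives that keep all arrays, 0 of the 9 probe sets were called between cultures (smallest adjusted p 0.139). For chemokines that moved in WT2 only, this 0 is not read, because the gap between their streptozotocin differences widens the error.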
